A study of Mus musculus with 6 samples.

Results

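Ribosome footprints, the short stretches of mRNA that ribosomes cover, were counted on 9 genes of the T cell antigen receptor and its partner molecules in resting and activated mouse CD4+ T cells. The genes were taken by Ensembl identifier from a table of 22322 genes: the CD3 chains Cd3d (ENSMUSG00000032094.7), Cd3e (ENSMUSG00000032093.6), Cd3g (ENSMUSG00000002033.12) and Cd247 (ENSMUSG00000005763.14), the coreceptors Cd4 (ENSMUSG00000023274.13) and Cd8a (ENSMUSG00000053977.12), and the surface receptors Cd2 (ENSMUSG00000027863.8), Cd5 (ENSMUSG00000024669.7) and Cd6 (ENSMUSG00000024670.15). All 9 were found. The cells of both groups were primary T cells of female C57BL/6J mice aged 6 weeks, taken from the spleen and lymph nodes and enriched for CD4+ cells by removing other cells. Resting cells received no activating beads, as read from the label, and activated cells received magnetic beads coupled to CD3 and CD28 antibodies. The label of each library says untreated and 0 h, that is, without the inhibitors of transcription and translation used elsewhere in the study. There were 3 libraries per group, numbered 2, 3 and 4 in each. The sources used here do not give whether animals were pooled, whether each library came from separate animals, or how long the cells had been stimulated, so p-values measure only the spread between these libraries.

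The antigen-binding alpha and beta chains of the T cell receptor have almost no cytoplasmic tail and reach the surface only with the CD3 chains, whose tails carry the tyrosine motifs that the kinase Lck phosphorylates. CD4, the coreceptor of helper T cells, binds MHC class II and brings Lck to the receptor, while CD8 does the same for MHC class I on killer T cells. CD2 is an adhesion molecule that binds CD48 in mice. CD5 and CD6 are related receptors with scavenger-type domains, CD5 is best known for dampening receptor signals, and CD6 binds ALCAM on other cells.

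Coding sequence (CDS) counts summed to between 437200 and 594508 in resting libraries and between 511483 and 1074656 in activated libraries, and the 9 genes held between 0.466% and 0.598% of them. Levels below are counts per 1000000 (CPM) over library sizes scaled by TMM, a method that sets libraries level on the bulk of their genes. A value in CPM compares 1 gene between libraries, relative to the other genes of each library. Counts were not scaled to cell number, so a lower or higher CPM does not give the output per cell. Coding lengths were not used here, so the levels of different genes are not compared per length. A footprint count follows both the amount of an mRNA and the ribosomes on it, and in such bulk samples fewer cells of a type and less RNA per cell cannot be told apart.

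Among these genes, the markers of the labelled cell type were present. All CD3 chains and Cd4 had between 147 and 490 CDS counts in each library. Cd8a, the marker of killer T cells, had 0 CDS counts in 5 libraries and 2 in activated replicate 3. A count of 0 allows up to 3 counts, or between 0.677 and 1.34 Cd8a counts per 100 Cd4 counts in those 5 libraries. Over all libraries Cd8a gave 2 counts against 2138 for Cd4, or 0.0935% of both (exact Clopper-Pearson 95% interval 0.0113% to 0.337%, for counting error only). Markers of B cells, myeloid cells and natural killer cells could not be looked up, because the files give no gene symbols.

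The genes lie in 2 small clusters and 4 single sites in the RefSeq annotation of GRCm38.p6, the assembly also called mm10. Cd3g, Cd3d and Cd3e follow each other on chromosome 9, at chr9:44969572-44980431, chr9:44981769-44987052 and chr9:44998735-45009663. The gap between Cd3g and Cd3d is 1337 bases and that between Cd3d and Cd3e is 11682 bases, with 0 listed genes in either. Cd5 (chr19:10718107-10739026) and Cd6 (chr19:10789339-10830062) lie 50.3 kb apart with 0 protein-coding genes between them. Cd247 (chr1:165779952-165871153), Cd4 (chr6:124864693-124888247), Cd8a (chr6:71373427-71379171) and Cd2 (chr3:101275908-101287939) stand alone among these genes.

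Promoter sequence is shown for description, and its part in the changes was not tested. The motifs were chosen after the sequences were seen, so the counts of matches below are no test of enrichment. RefSeq windows of 300 bases, 250 before and 50 after a listed transcript start, were held for 6 of the 9 genes (Cd3d, Cd3e, Cd3g, Cd247, Cd8a and Cd5). The Cd247 window, chr1:165788431-165788730, lies inside the gene, whose annotated start is chr1:165779952. It therefore belongs to an internal transcript start. The letters CACCTG, an E-box of the kind bound by the E proteins E2A and HEB, occurred on either strand in 5 of the 6, against 20.2% of 32851 promoter windows of that length. The match nearest the listed start is given for each gene in capitals within 30 bases, 5′ to 3′ on the strand of the gene, where CAGGTG is the same motif on the opposite strand.
Cd3d, chr9:44981662-44981691, plus strand: aagagcagtttgCACCTGtttgtgttttac
Cd3e, chr9:45009591-45009620, minus strand: gtggggttcagaCACCTGcctcccctgtct
Cd3g, chr9:44980449-44980478, minus strand: agagggcggagaCACCTGgtattgcctcta
Cd247, chr1:165788659-165788688, plus strand: gtgtcttgctggCAGGTGctgtctcaaagg
Cd5, chr19:10739026-10739055, minus strand: ttctaattggggCAGGTGgtttcacaggga

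The letters GGAAGT, a core that ETS factors such as Ets1 bind, occurred on either strand in 4 of the 6 windows, against 23.8% of all windows. None of these matches overlapped a CACCTG match. The match nearest the start is again in capitals, and ACTTCC is the motif on the opposite strand.
Cd3d, chr9:44981575-44981604, plus strand: aaattcccttacACTTCCtagaattctgaa
Cd3e, chr9:45009612-45009641, minus strand: agtcccctctacACTTCCtgtgtggggttc
Cd247, chr1:165788690-165788719, plus strand: ccacagtcctccACTTCCtggggtgtcagc
Cd5, chr19:10739008-10739037, minus strand: gtttcacagggaGGAAGTtgacagttcaac

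TGTGGT, a RUNX core, had 0 matches in the 6 windows and was in 16.8% of all windows. A match describes letters and not a bound site. The genes with both motifs included Cd3d, Cd3e and Cd247, whose footprints fell, and Cd5, whose footprints rose.

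In CPM, a relative measure, footprints on the 4 CD3 chains were lower in activated cells. Those on Cd2, Cd5 and Cd6 were higher, Cd5 by the largest factor. The low-count filter left 8 genes, of which 4 fell (all CD3 chains) and 3 rose, by edgeR's quasi-likelihood test at an adjusted p under 0.05. Over all 6775 genes tested, 21.6% fell and 24.1% rose. The groups did not overlap in any of the 8 genes, against 54.8% of all genes tested. The median log2 change was -0.32 over the 8 genes and -0.04 over all genes. Cd8a did not pass the filter. Cd3g, Cd5 and Cd6 kept their calls in all 18 alternatives run, whereas those of Cd3d and Cd3e depended on the tool, the filter and single libraries.

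**Figure D1:**
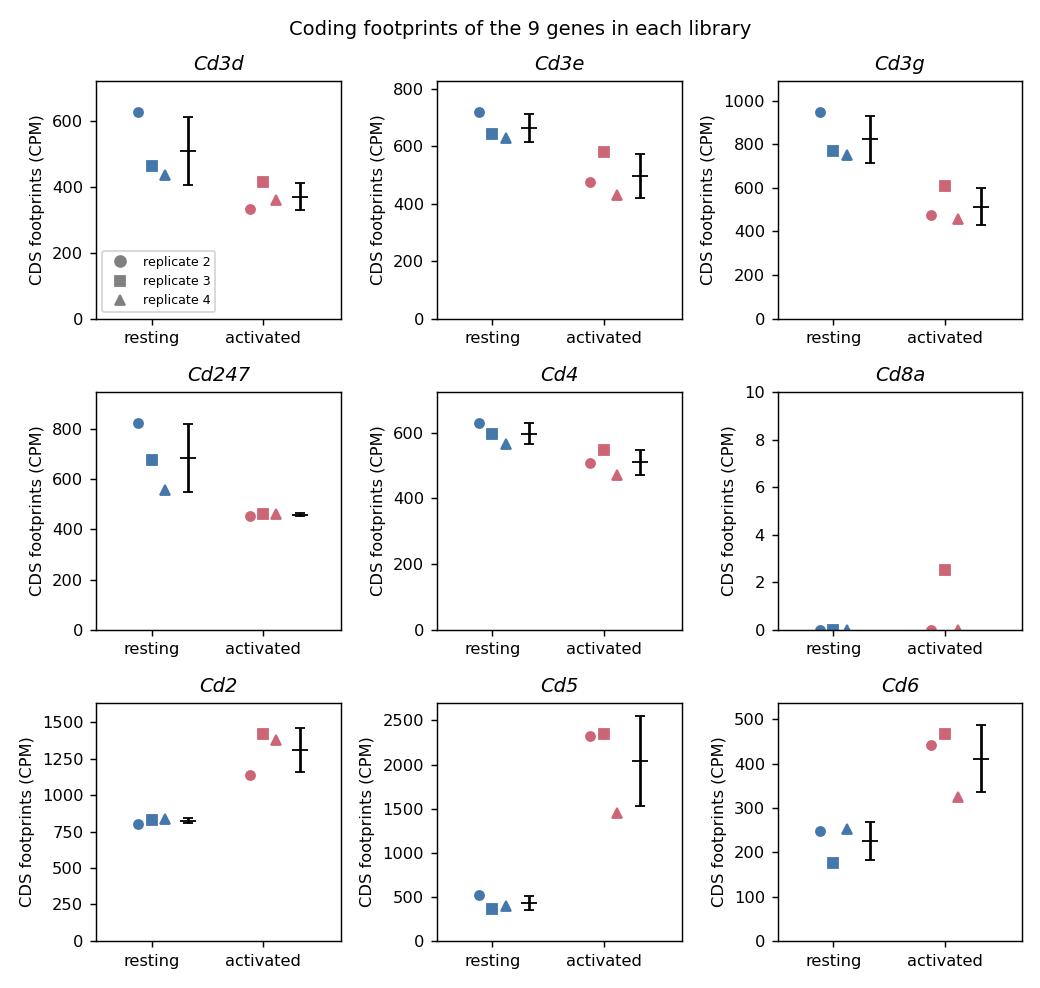
CDS footprints in CPM for each of the 9 genes (1 panel each, vertical axis from 0), with resting libraries in blue and activated libraries in red, replicate numbers as symbols, and the mean ± SD of 3 libraries in black (not drawn for Cd8a). The CD3 chains and Cd4 lie lower in activated cells, Cd2, Cd5 and Cd6 lie higher, and Cd8a is at 0 in 5 libraries.

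Cd3g, which encodes the gamma chain that pairs with epsilon, had the lowest log2 change of the CD3 chains. Resting replicates 2, 3 and 4 gave 948, 769 and 753 CPM, and the activated libraries with these numbers gave 477, 610 and 457 CPM. Every activated library was below every resting library. On average the level fell from 823 ± 108 to 515 ± 83.1 CPM (SD, n = 3). The fitted log2 change was -0.67 with a standard error (SE) of 0.16 (edgeR adjusted p = 0.00245), or 1.60-fold lower. Under the 18 alternatives its log2 change lay between -1.01 and -0.56, and its highest adjusted p was 0.0191.

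Cd247 encodes the zeta chain, a homodimer with a long tail that holds most of the signalling motifs of the receptor. Resting replicates 2, 3 and 4 gave 822, 675 and 555 CPM, and the activated libraries with these numbers gave 454, 463 and 459 CPM. The resting libraries were spread wide and the activated libraries lay close together. This is a step from 684 ± 134 to 459 ± 4.08 CPM on average (SD, n = 3), and edgeR fitted a log2 change of -0.57 (SE 0.16, adjusted p = 0.00717). Without resting replicate 2, the highest library, the log2 change was -0.42 (edgeR adjusted p = 0.0599), past the threshold no longer.

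Cd3d encodes the delta chain, which also pairs with epsilon. At rest, replicates 2, 3 and 4 gave 627, 464 and 435 CPM, and the activated libraries with these numbers gave 334, 415 and 360 CPM. The lowest resting library lay just above the highest activated library. Averages were 508 ± 103 CPM at rest and 370 ± 41.3 CPM after activation (SD, n = 3). In edgeR the log2 change was -0.45 (SE 0.17, adjusted p = 0.0345). Without resting replicate 2 it was -0.28 (edgeR adjusted p = 0.218), and the call was also lost without resting replicate 3 (log2 change -0.51, adjusted p = 0.0526), activated replicate 2 (-0.36, adjusted p = 0.0908) or activated replicate 4 (-0.40, adjusted p = 0.0913). With DESeq2 it was -0.41 (adjusted p = 0.0852) and without a low-count filter -0.40 (edgeR adjusted p = 0.0721).

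Cd3e encodes the epsilon chain, shared by the gamma-epsilon and delta-epsilon pairs and carrying the site most activating CD3 antibodies bind. Resting replicates 2, 3 and 4 gave 719, 642 and 629 CPM, and the activated libraries with these numbers gave 477, 580 and 429 CPM. Here too the groups were separate. From 663 ± 48.8 CPM the average level went to 495 ± 76.9 CPM (SD, n = 3), for a fitted change on the log2 scale of -0.42 (SE 0.15, edgeR adjusted p = 0.0323). The call was lost without resting replicate 2 (log2 change -0.36, adjusted p = 0.118), resting replicate 3 (-0.44, adjusted p = 0.0712), activated replicate 2 (-0.37, adjusted p = 0.0679) or activated replicate 4 (-0.29, edgeR adjusted p = 0.168). It was also lost with DESeq2 (-0.38, adjusted p = 0.0724) and without a low-count filter (-0.38, edgeR adjusted p = 0.0767).

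Read against all CDS counts, with no scaling, the 4 chains together took 33.9, 27.8 and 26.0 of every 10000 counts in resting replicates 2, 3 and 4. The activated libraries with these numbers gave 15.0, 18.1 and 14.9. The means were 29.2 ± 4.16 and 16.0 ± 1.79 (SD, n = 3). The fall is larger on this scale than in CPM because library totals alone place the median of all genes at a log2 change of -0.38, against -0.04 with TMM. With library totals alone the log2 changes were -0.79 for Cd3d, -0.76 for Cd3e, -1.01 for Cd3g and -0.91 for Cd247, each still below that median.

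**Figure D2:**
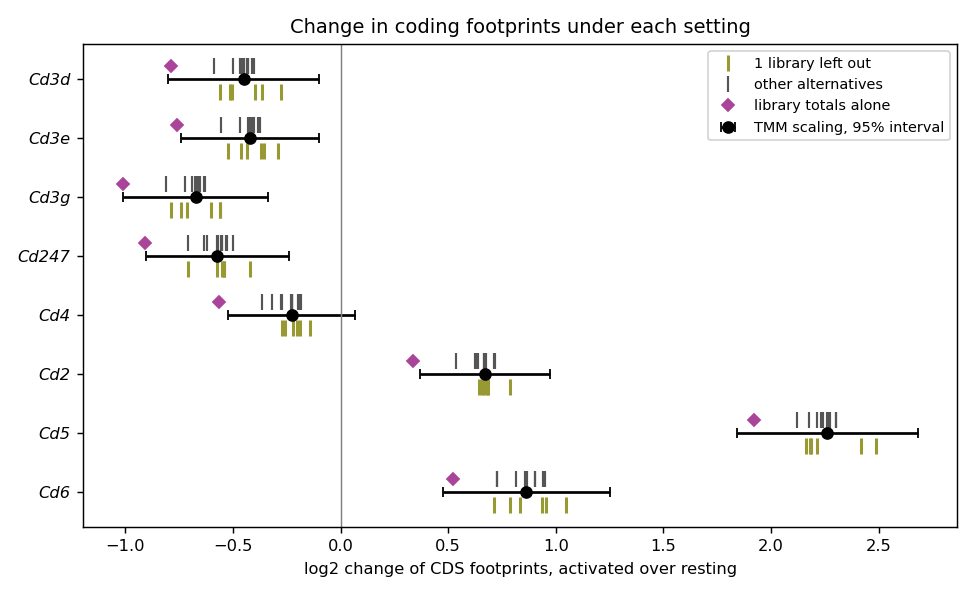
Log2 change of CDS footprints (horizontal axis, activated over resting) for the 8 genes tested. Black points and bars are the edgeR value with TMM scaling and its 95% interval, olive ticks leave out 1 library, grey ticks are other alternatives and diamonds use library totals alone. The CD3 chains lie below 0 in every setting, Cd2, Cd5 and Cd6 lie above 0, and the interval of Cd4 spans 0.

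The plot of chain shares by library shows how the CD3 counts were divided. Cd3g gave 30.8 ± 0.857% of the counts of the 4 chains at rest and 27.9 ± 1.42% after activation (SD, n = 3). Cd3d gave 18.9 ± 1.07% and 20.1 ± 0.974%, Cd3e 24.9 ± 1.73% and 26.9 ± 1.50%, and Cd247 25.4 ± 1.75% and 25.1 ± 2.41%. These shares are not corrected for length and do not give the number of chains made.

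**Figure D3:**
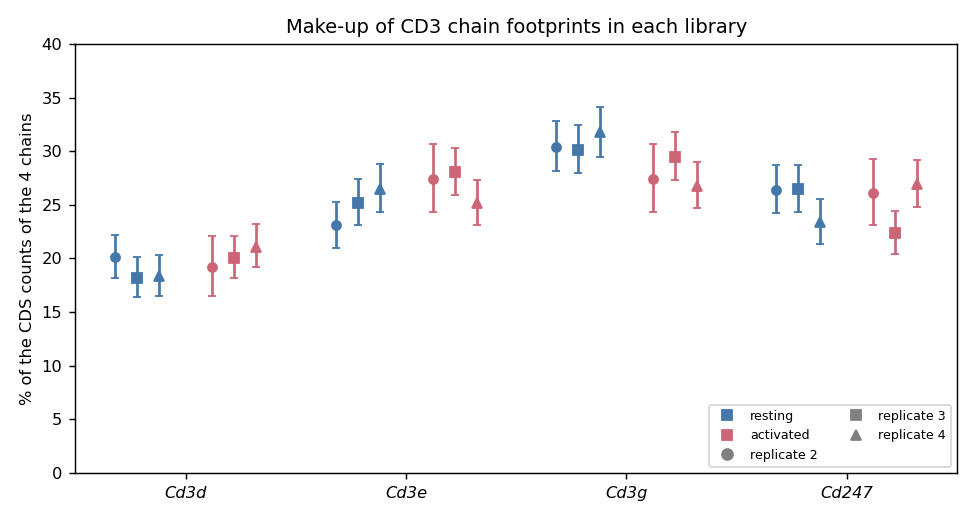
Share of each CD3 chain in the CDS counts of the 4 chains (vertical axis, percent), per library, with 95% Wilson intervals that cover counting error only. Resting libraries are blue and activated libraries red. The 3 activated libraries lie below the 3 resting libraries for Cd3g and mix with them for the other chains.

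Ratios of counts within a library need no scaling between libraries, and 7 pairs were set side by side. The tests were exact two-sided permutation tests whose smallest possible p is 0.1, so none could pass 0.05. The epsilon to gamma ratio, Cd3e over Cd3g, was between 0.758 and 0.835 in resting and between 0.939 and 1.00 in activated libraries. Its mean log2 was 0.25 higher after activation, with no overlap of the groups (exact permutation p = 0.1, adjusted 0.233). Cd3d over Cd3g went from between 0.578 and 0.661 to between 0.680 and 0.788, also without overlap (log2 difference 0.23, exact permutation p = 0.1, adjusted 0.233). Both ratios have Cd3g below the line, so they and the share of Cd3g above are not separate observations. The share of all gene pairs without overlap is not given here. In the other 4 pairs of CD3 chains the groups overlapped, with log2 differences between -0.12 and 0.13 (exact permutation p between 0.4 and 0.8).

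**Figure D4:**
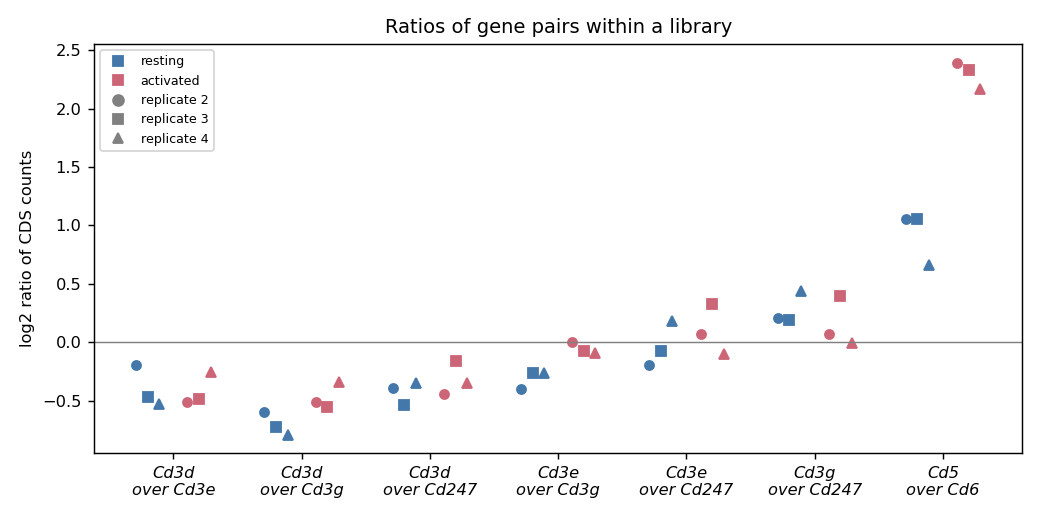
Log2 ratio of the CDS counts of 2 genes (vertical axis) in each library, for 6 pairs of CD3 chains and for Cd5 over Cd6. Resting libraries are blue and activated libraries red. Only Cd3d over Cd3g, Cd3e over Cd3g and Cd5 over Cd6 show separate groups, and the shift of Cd5 over Cd6 is the largest of the 7. The share of all gene pairs with separate groups is not given here.

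Among the coreceptors, Cd4 gave 629, 597 and 566 CPM in resting replicates 2, 3 and 4, and the activated libraries with these numbers gave 509, 548 and 472 CPM. The activated libraries all lay below the resting libraries, by a small margin. The mean was 597 ± 31.5 and 510 ± 38.3 CPM (SD, n = 3), and the log2 change of -0.23 (SE 0.14, 95% interval -0.52 to 0.07) did not pass the test (edgeR adjusted p = 0.193). The call depended on the scaling: with upper quartile factors the log2 change was -0.37 (edgeR adjusted p = 0.0410) and with library totals alone -0.57 (edgeR adjusted p = 0.00297). These scalings also moved the median log2 change of all genes, to -0.18 and -0.38, against -0.04 with TMM. Whether Cd4 changed less than the CD3 chains was not tested. The coreceptor of the other T cell lineage, Cd8a, was too rare for a level in either group, and no fold is given.

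Cd5, the receptor that dampens antigen receptor signals, had the highest log2 change of the 8 genes tested. At rest, replicates 2, 3 and 4 gave 515, 363 and 401 CPM, and the activated libraries with these numbers gave 2329, 2343 and 1456 CPM. The lowest activated library, replicate 4, was still far above the highest resting library. Its average rose from 427 ± 79.0 to 2043 ± 508 CPM (SD, n = 3). The log2 change in edgeR was 2.26 (SE 0.20, adjusted p = 1.89e-07), or 4.80-fold higher. Of the 1633 genes that rose in the whole table, 209, with Cd5 itself counted, had a log2 change at least as high. Its share of CDS counts went from 4.65 ± 0.853 to 17.7 ± 4.35 per 10000 (SD, n = 3).

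Cd6, the neighbour and relative of Cd5, also rose. At rest, replicates 2, 3 and 4 gave 248, 175 and 254 CPM, and the activated libraries with these numbers gave 443, 466 and 325 CPM. The groups were separate, and activated replicate 4 was again the lowest of its group. Average levels were 226 ± 43.8 CPM at rest and 411 ± 76.0 CPM after activation (SD, n = 3), for a change on the log2 scale of 0.86 (SE 0.18, edgeR adjusted p = 0.00116). Within a library there were between 1.58 and 2.08 Cd5 counts per Cd6 count in resting cells and between 4.49 and 5.26 in activated cells. That is a log2 difference of 1.37 without overlap (exact permutation p = 0.1, the smallest possible, adjusted 0.233). How many other gene pairs lack overlap is not given here.

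Cd2, the adhesion molecule that binds CD48, also rose. Resting replicates 2, 3 and 4 gave 803, 830 and 836 CPM, and their spread was the smallest of the 8 genes tested at rest. The activated libraries with these numbers gave 1138, 1417 and 1376 CPM, all above the resting libraries. The averages were 823 ± 17.6 and 1311 ± 150 CPM (SD, n = 3), for a log2 change in edgeR of 0.67 (SE 0.14, adjusted p = 0.00111). With library totals alone, where the median of all genes was -0.38, the change was 0.33 and missed the threshold (edgeR adjusted p = 0.0598).

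Counts in the 5′ UTR, the leader ahead of the start codon, were examined beside the CDS. Of the 7 genes with enough leader counts to test, 3 fell (Cd3d, Cd3g and Cd4) and 2 rose (Cd5 and Cd6) at an edgeR adjusted p under 0.05. Over the 2200 genes tested in that region 19.8% fell and 22.2% rose. Leader footprints of Cd5 went from 44 counts over the resting group to 203 over the activated group, or 1.65 on the log2 scale (SE 0.31, edgeR adjusted p = 7.21e-04). Those of Cd6 went from 169 to 437 counts (0.79, SE 0.23, edgeR adjusted p = 0.0138). Cd3g had 114 and 98 leader counts (-0.79, SE 0.27, edgeR adjusted p = 0.0263) and Cd3d 248 and 235 (-0.71, SE 0.26, edgeR adjusted p = 0.0408). Cd4 had 258 and 246 (-0.67, SE 0.25, edgeR adjusted p = 0.0452). DESeq2 gave log2 changes of -0.65 for Cd3d, -0.74 for Cd3g and -0.61 for Cd4 and called 0 of the 3 (adjusted p between 0.116 and 0.169). Values for the leaders of Cd3e (162 and 194 counts, log2 change -0.35) and Cd247 (248 and 308 counts, -0.31) did not pass the test (edgeR adjusted p = 0.309 and 0.315).

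The calls of the 3 falls in the leader also depended on single libraries: leaving out resting replicate 4 or activated replicate 2 left 0 of the 3 called, and leaving out any of the other 4 libraries left 1. The log2 changes stayed below 0 in these fits, between -0.96 and -0.51 for Cd3d, -0.96 and -0.62 for Cd3g and -0.92 and -0.47 for Cd4. Without resting replicate 4 they were -0.70, -0.80 and -0.77, near or past the values with all 6 libraries. The rise of Cd6 in the leader lost its call without resting replicate 3 (adjusted p = 0.0807), resting replicate 4 (0.0816) or activated replicate 3 (0.0530), and with library totals alone (0.0625). The rise of Cd5 did not lose its call in any of these.

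**Figure D5:**
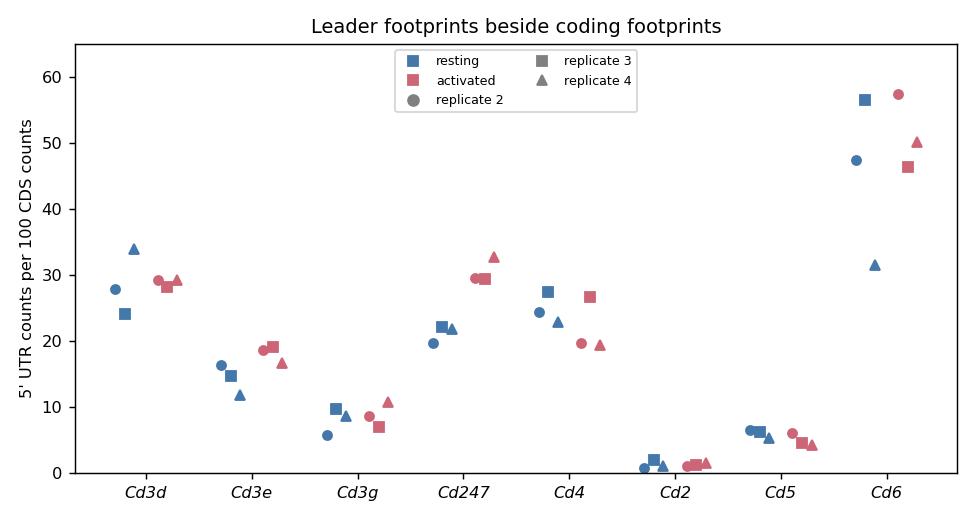
5′ UTR counts per 100 CDS counts (vertical axis) in each library for the 8 genes with CDS counts in all libraries. Resting libraries are blue and activated libraries red. Cd6 has the highest values in every library but resting replicate 4 and Cd2 the lowest in all. The groups are separate for Cd247 and, by a small margin, for Cd3e. The share of all genes with separate groups is not given here.

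The genes differed widely in how many footprints lay on the leader, a quantity that also follows leader length, which was not used here. Per 100 CDS counts, Cd6 had 45.2 ± 12.6 leader counts at rest and 51.3 ± 5.63 after activation (SD, n = 3), whereas Cd2 had 1.28 ± 0.604 and 1.26 ± 0.275. Cd5, next to Cd6 in the genome, had 6.05 ± 0.609 and 4.91 ± 1.00. Of the CD3 chains, Cd3d had 28.6 ± 4.94 and 28.9 ± 0.629 and Cd3g had 8.01 ± 2.03 and 8.77 ± 1.86.

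For Cd247, resting replicates 2, 3 and 4 had ratios of 19.7, 22.1 and 21.9, and activated libraries with these numbers had 29.5, 29.3 and 32.7, so the groups did not overlap. The ratios of Cd3e were 16.4, 14.6 and 11.7 at rest and 18.6, 19.1 and 16.6 after activation, in the same order. They too did not overlap, by the small margin of 16.4 against 16.6. The share of all genes without overlap in this ratio is not given here. Over all genes the ratio was between 14.0 and 15.5 in resting libraries, 20.02 in activated replicate 2, 15.1 in activated replicate 3 and 14.3 in activated replicate 4. In a single edgeR model over both regions, with each region scaled on its own, 0 of the 8 genes changed in leader relative to CDS, also at an unadjusted p under 0.05, against 0.256% of 4305 genes at the adjusted threshold. The log2 change was 0.25 for Cd247 (SE 0.26, edgeR adjusted p = 0.798) and 0.08 for Cd3e (SE 0.28, edgeR adjusted p = 0.955). With 1 scaling for both regions it was 0.53 for Cd247 (edgeR adjusted p = 0.426) and 0.35 for Cd3e (edgeR adjusted p = 0.616). The lowest unadjusted p belonged to Cd5 (0.0604, log2 change -0.61).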

How the data were processed

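The members and lists were chosen with earlier results of these data known. The authors deposited 1 table of raw counts per gene for CDS (in 2 counting modes), 5′ UTR, 3′ UTR, exons and introns. Per the submitters' processing notes, the tools were TopHat2 2.0.13, Bowtie 1.1.1.0 and HTSeq, on build mm10. The sources used here do not give the annotation release, read trimming or strand setting. Summary rows that name no gene stayed out of all sums: records without a unique alignment were between 65.8% and 79.6% of a library, and those outside any CDS between 11.8% and 14.5%. Symbols of the members came with the list of identifiers. The reference table paired 0 identifiers with symbols, so the other gene lists planned by symbol (receptor-proximal kinases and adaptors, brakes, receptor partners, cell type markers) could not be counted, and density per coding length was not computed.

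The fit on CDS counts of all genes used edgeR 4.0.16 under R 4.3.3 (filterByExpr, TMM, glmQLFit in its newer form and a two-sided glmQLFTest), and p-values were adjusted over all genes tested by Benjamini-Hochberg. SE is the log2 change over the square root of F. The 5′ UTR was tested alike. Leader relative to CDS used a region by group term with a term per library, for genes with at least 10 leader counts in all. Scripts were tested on simulated data. Named genes were all members, plus the genes most alike by Pearson r. Alternatives were 3 scalings, 2 filters, DESeq2 1.42.0, limma 3.58.1 (voom), other columns, thinning, a replicate block and leaving out each library. The older quasi-likelihood form was added after seeing the data.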

Additional observations from a re-analysis of the deposited data

Results flagged for a closer look

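Intron counts, which no comparison above uses, were seen on Cd2 in activated cells. They numbered 0, 8 and 7 in activated replicates 2, 3 and 4, or 0.479 per 100 exon counts over the group. Resting libraries had 0 intron counts beside 1582 exon counts on this gene, which allows up to 0.19 per 100. The counts were above the resting level in 2 of 3 activated libraries, and the difference was not tested. The activated rate of Cd2 was within the range of the other genes apart from Cd8a. Over the activated group these had between 0.0726 (Cd6) and 0.922 (Cd3d) intron counts per 100 exon counts. At rest they had between 0.147 (Cd4) and 1.05 (Cd5). The resting limit of Cd2, 0.19 per 100, lies above the values of Cd4 and Cd3g (0.185). The resting value of Cd2 is therefore not shown to differ from all of them.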

How the results depend on the processing

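All 8 genes tested kept the direction of their CDS change under all 18 alternatives. Of 144 values, 128 also kept their side of the threshold, 14 lost the call and 2 gained it. Without a low-count filter and with DESeq2, 2 of the 4 CD3 chains remained called lower: the log2 changes were -0.40 and -0.41 for Cd3d and -0.38 and -0.38 for Cd3e. Leaving out each library gave 1 to 4 members called lower, with log2 changes from -0.56 to -0.28 for Cd3d, -0.52 to -0.29 for Cd3e and -0.71 to -0.42 for Cd247. Upper quartile factors and library totals alone gave Cd4 log2 changes of -0.37 and -0.57 with a call, and library totals alone gave Cd2 0.33 without one. The median of all genes was -0.18 and -0.38 under these scalings, against -0.04 with TMM. Over all genes, 2572 were lower with library totals alone and 827 with DESeq2, against 1464. For the leader relative to the CDS, 7 of 56 values changed sign, none of them called: with 1 scaling for both regions 0.022 for Cd3d, 0.13 for Cd3g and 0.22 for Cd6, against -0.25, -0.13 and -0.07. Without a library, Cd3e had values between -0.059 and 0.18, against 0.08, below 0 where resting replicate 4, resting replicate 3 (-0.017) or activated replicate 3 (-0.0095) was left out. For Cd2 it was 0.061 without resting replicate 3, against -0.23. The 49 values of the 7 pair ratios moved by less than 1 SD, the root mean square of the SDs of both groups. Among them Cd5 over Cd6 lay between 1.22 and 1.44, against 1.37, and Cd3d over Cd3e was above 0 without resting replicate 2 (0.084), activated replicate 2 (0.032) or activated replicate 3 (0.016), against -0.017. The cause of these changes was not tested.

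The replicate numbers were not shown to pair the libraries: same-numbered libraries correlated at 0.13, 0.07 and 0.23 in their deviations from the group means, though each correlated best with its own number. With a replicate block the 8 CDS calls were the same (3 members higher and 4 lower, 1789 and 1666 of all genes), and in the leader 1 member was lower against 3 (adjusted p = 0.0840 for Cd3d and 0.0545 for Cd4). Depth limits Cd8a, with 2 counts in all.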

Other observations

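Records counted for the CDS only in the intersection-nonempty mode made up between 12.4% and 19.0% of that mode's counts for Cd3d, the highest of these genes in each library. For the other 7 genes with counts in every library they made up between 1.67% and 11.5%. The sources used here do not give what sets these records apart. The log2 change of Cd3d with them counted is among the alternatives. In the 3′ UTR, Cd247 had the most counts of the 9 genes, 33 in resting and 23 in activated libraries, or 2.11 and 1.63 per 100 exon counts.

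Of 4065 other genes with a mean of at least 50 CPM, the gene whose log2 CPM followed the mean of the 4 CD3 chains most closely over the 6 libraries was ENSMUSG00000028062.14 (Pearson r = 0.991, log2 change -1.05). For Cd4 it was ENSMUSG00000030682.3 (Pearson r = 0.997, log2 change -0.75). The files do not pair these identifiers with symbols. All 6 points share libraries and fall into the study's 2 groups, so r mostly follows the difference between groups, and it exceeded 0.95 for 71 and 63 genes.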
